A study of Homo sapiens with 6 samples.

Results

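The genes described here are the 61 members of the tripartite motif family, named TRIM, that had a measured value among 14884 named genes on expression arrays of THP-1 cells. They were taken by symbol: TRIM followed by a digit, without pseudogenes and antisense genes. Members without a named probe, among them TRIM6, TRIM23, TRIM34, TRIM39, TRIM58, TRIM63, TRIM71 and TRIM73, are not in the counts. For each gene the probe with the highest mean over the 6 arrays was used. THP-1 is a human cell line established from acute monocytic leukaemia. The cells had been transduced with a psi-LVRU6GP vector that carried either a short hairpin RNA against RKIP (3 arrays) or no insert (the control, 3 arrays), and both populations were kept in 1.5 µg/mL puromycin. RKIP, the Raf kinase inhibitor protein, is the product of PEBP1. The control is an empty vector, not a non-targeting hairpin. The arrays of a group are labelled biological replicates, but nothing says whether they came from separate transductions or from cultures of the same transduced population, so the spread behind each p-value may be technical only.

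TRIM proteins share an N-terminal arrangement of a RING finger, 1 or more B-boxes and a coiled coil, and most act as ubiquitin ligases: the RING takes ubiquitin from an E2 enzyme and passes it to a target chosen by the C-terminal domain. Some members lack the RING, among them TRIM14, TRIM16, TRIM29, TRIM44 and TRIM66. The C-terminal domain sorts the family into classes. The largest carries a PRY-SPRY domain and holds many antiviral and innate immune members, which are well known in monocytes and macrophages because several are induced by interferon. Other classes carry a COS box that binds microtubules, NHL repeats, or a PHD finger with a bromodomain that reads chromatin.

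PEBP1, the hairpin's target, read 9.52, 9.77 and 9.75 on the deposited log2 scale in the control arrays and 8.25, 8.18 and 8.24 in the RKIP shRNA arrays, which left 36.4% of the control level (95% interval 31.6% to 42.1%, limma adjusted p = 0.000228). With 3 arrays a group, a two-sided exact permutation test cannot go below its result here, p = 0.10. Array medians lay between 4.06 and 4.10. Markers of the monocytic line were present, with CD14 and S100A8 alone among the 11 measured below the median of all rows, and they moved with the groups: LYZ, MNDA, TYROBP, SPI1, CD68 and MPO rose and CD4 fell (6 and 1 genes), and their mean level was 6.32 to 6.35 in control and 7.14 to 7.27 in RKIP shRNA arrays. Their part in the TRIM changes was not tested. In bulk RNA, fewer cells of a kind and less RNA per cell cannot be told apart. Of markers of other cell types, 1 of 5 T cell genes (CD5) rose, 1 of 3 B cell (VPREB3) and 1 of 7 epithelial genes (KRT18) fell, and the 1 measured erythroid gene did not pass, where 20.2% of all genes were called in either direction. List means per array were 4.62 to 4.79 and 4.72 to 4.85 for T cell, 4.81 to 4.90 and 4.62 to 4.71 for B cell and 4.35 to 4.47 and 4.39 to 4.48 for epithelial markers, in control and RKIP shRNA arrays.

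In RKIP shRNA cells 7 members were lower and 5 were higher than in control cells, and 49 did not pass. The lower genes were TRIM2, TRIM22, TRIM9, TRIM74, TRIM16, TRIM46 and the TRIM6-TRIM34 read-through, and the higher genes were TRIM21, TRIM28, TRIM72, TRIM24 and TRIM35. The test was limma's moderated test over all 14884 genes, with a call at p under 0.05 after Benjamini-Hochberg adjustment. The 12 called members are 19.7% of the family, and 20.2% of all genes were called (10% higher, 10.2% lower), so the family's share of calls is near the background. The median log2 change was 0.02 over the members and 0.02 over all genes. Only TRIM2 and TRIM22 were called and differed by at least 2-fold in the deposited values, as did 1.26% of all genes. The groups of arrays did not overlap for 25 members, against 37.9% of all genes.

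A gene with a mean over the 6 arrays below the median of all rows, 4.07 on the deposited log2 scale, is called dim here. Of the 44 members at or above that median, 12 were called (27.3%), against 29.1% of all such genes, of which 14.5% were higher and 14.6% lower. None of the 17 dim members passed limma's adjusted threshold, against 3.65% of all dim genes, and 2 of them, TRIM42 and TRIM10, had an unadjusted p under 0.05. The members nearest to the line were TRIM15 just above it at 4.25 and TRIM17 just below it at 4.02. With dim genes left out before the fit, the count of lower members rose from 7 to 12 and that of higher members stayed at 5, together 38.6% of 44, where 38.1% of all genes then passed. A trended and robust prior gave 11 lower and 6 higher, where 26% of all genes passed. Brightness depends on the probe, so levels are compared between arrays and not between genes.

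**Figure D1:**
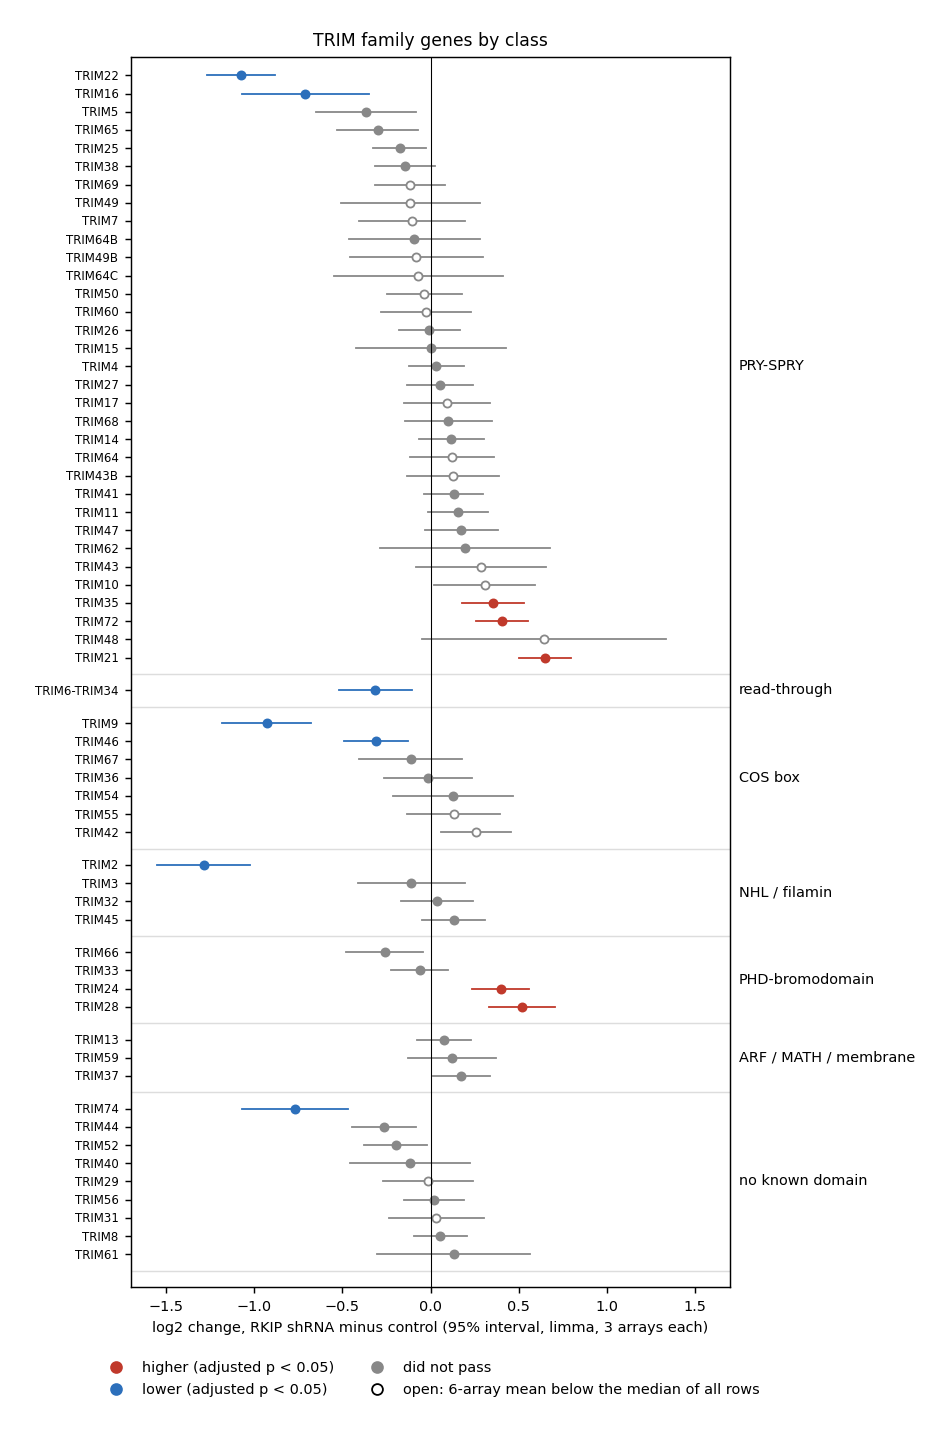
Log2 change (RKIP shRNA minus control, x axis) of each of the 61 TRIM genes with its 95% interval from limma, grouped by C-terminal class; red and blue mark genes called higher and lower, grey those that did not pass, and open circles genes with a 6-array mean below 4.07. Most points lie near 0, TRIM2 and TRIM22 lie below -1, and no open circle is called.

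TRIM2, a ligase with NHL repeats known for acting on neurofilament light chain in neurons, fell from a clear signal to a dim one. Its log2 values were 4.87, 5.26 and 4.97 in the control arrays and 3.83, 3.72 and 3.69 in the RKIP shRNA arrays. Every RKIP shRNA array lay below the median of all rows and every control array above it. The mean fell by 1.29 (SE 0.11), or 2.44-fold between the deposited values (limma adjusted p = 0.000668). The RKIP shRNA mean was dim, so the size of this fold is limited by signal over background. The other measured genes of this class did not pass: TRIM3, a close relative of TRIM2, had a log2 change of -0.11, TRIM32, a ligase linked to muscle, 0.04, and TRIM45, which has a filamin domain but no NHL repeats, 0.13 (95% interval -0.05 to 0.31, adjusted p = 0.29).

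Members of the COS-box class bind microtubules. TRIM9, a ligase best known from the brain, read 5.11, 5.36 and 5.17 in control arrays and 4.40, 4.11 and 4.34 in RKIP shRNA arrays. The groups were separate, and the mean fell by 0.93 (SE 0.11), or 1.91-fold (adjusted p = 0.00173). TRIM46, which organises parallel microtubules in the axon, read 5.36, 5.48 and 5.53 against 5.16, 5.20 and 5.07. That is a smaller fall, by 0.31 (SE 0.08, limma adjusted p = 0.0291), and it lost the call without control replicate 2 or 3 or RKIP shRNA replicate 1 or 3, where adjusted p lay between 0.079 and 0.098, and after quantile normalisation (0.0568). Of the 7 measured genes of this class, 2 fell and 5 did not pass, and the 28.6% called compares with 20.2% of all genes and 29.1% of those at or above the median of all rows. TRIM36 and TRIM67 had log2 changes of -0.01 and -0.11, and the muscle genes TRIM54 and TRIM55 0.13 each, the latter dim. TRIM42 was dim in both groups, at 2.27 and 2.53, with a log2 change of 0.26 (adjusted p = 0.0744).

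On chromosome 11 lies a run of neighbouring paralogs, TRIM5, TRIM6, TRIM34 and TRIM22, that encode PRY-SPRY proteins known for restricting retroviruses or for induction by interferon. No other protein-coding gene stands between them in RefSeq's order. Of the 3 genes measured in this run, 2 fell in RKIP shRNA cells and the third, TRIM5, did not pass. All 3 lay at or above the median of all rows, where 14.6% of all genes fell and 29.1% were called. TRIM22, an interferon-induced antiviral gene, read 6.01, 6.14 and 5.998 in control arrays and 4.88, 4.96 and 5.08 in RKIP shRNA arrays. The gap between the groups was several times their SDs of 0.08 and 0.10, and the mean fell by 1.07 (SE 0.08), or 2.10-fold (limma adjusted p = 0.000478). TRIM6-TRIM34, a read-through transcript whose probe cannot be assigned to either gene, read 5.85, 5.90 and 5.74 against 5.63, 5.39 and 5.53. It fell by 0.31 (SE 0.09, adjusted p = 0.045), and the call was lost in all 6 fits that left out 1 array, with adjusted p from 0.051 to 0.14. TRIM5, which blocks incoming retroviral capsids, read 5.72, 5.78 and 5.82 against 5.44, 5.15 and 5.62. Its groups did not overlap, but the log2 change of -0.37 (95% interval -0.65 to -0.08) did not pass (adjusted p = 0.0774), and without RKIP shRNA replicate 3 it was -0.47 with adjusted p = 0.0354. TRIM5 also passed with a trended and robust prior and with dim genes left out.

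TRIM21 lies on the same chromosome, apart from that run, and moved the other way. It encodes a cytosolic antibody receptor that sends antibody-coated particles to the proteasome and is also induced by interferon. Its log2 values were 6.54, 6.55 and 6.48 in control arrays and 7.15, 7.19 and 7.19 in RKIP shRNA arrays. The arrays of each group lay close together, and the mean rose by 0.65 (SE 0.06), or 1.57-fold (limma adjusted p = 0.000954). TRIM68, the next TRIM gene along, with 5 protein-coding genes between, had a log2 change of 0.10 (95% interval -0.15 to 0.35) and did not pass.

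Promoters are shown for 3 of the genes just described because interferon acts on many family members through a promoter sequence, the interferon-stimulated response element, ISRE: TRIM5 as a member of the chromosome 11 run, TRIM21 because it rose, and TRIM2 because it fell. The 250 bases before each RefSeq start on GRCh38.p14 are given 5' to 3' on the gene's strand, and capitals mark matches on either strand to the ISRE core, searched as GAAA, any 2 bases and GAAA.
TRIM5 (chr11:5685075-5685324, minus strand): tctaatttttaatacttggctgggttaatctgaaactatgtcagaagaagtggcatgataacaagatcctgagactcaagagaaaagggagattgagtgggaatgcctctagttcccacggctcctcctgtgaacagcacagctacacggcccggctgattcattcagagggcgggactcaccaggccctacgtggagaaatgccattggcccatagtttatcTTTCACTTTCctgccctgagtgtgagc
TRIM21 (chr11:4393703-4393952, minus strand): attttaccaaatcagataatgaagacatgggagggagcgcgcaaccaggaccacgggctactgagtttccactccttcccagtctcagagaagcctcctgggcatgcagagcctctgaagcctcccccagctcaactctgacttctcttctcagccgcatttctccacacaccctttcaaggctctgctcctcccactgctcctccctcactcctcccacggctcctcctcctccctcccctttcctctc
TRIM2 (chr4:153151913-153152162, plus strand): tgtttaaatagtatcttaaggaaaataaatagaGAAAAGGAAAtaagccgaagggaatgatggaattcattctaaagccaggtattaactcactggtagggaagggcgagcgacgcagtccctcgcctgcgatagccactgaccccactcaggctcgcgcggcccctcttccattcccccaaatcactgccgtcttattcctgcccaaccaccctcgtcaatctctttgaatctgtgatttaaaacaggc
In TRIM5 the match, on the reverse strand, lay 27 to 18 bases before the start. In TRIM2 it lay 217 to 208 bases before the start, and the window of TRIM21 held none. A promoter was matched for 46 of the 61 members, and not for TRIM22, TRIM24, TRIM28 or TRIM35 among those called. Of these 46, 8 held the ISRE core (17.4%): TRIM2, TRIM5, TRIM14, TRIM16, TRIM26, TRIM44, TRIM64C and TRIM69. The share was 3.07% of 27305 promoters of the same length and 11 of 16 matched promoters from a list of interferon-stimulated genes. The core of the other interferon element, GAS, searched as TTC, any 3 bases and GAA, which reads the same on both strands, was in 7 of the 46 (15.2%) and in 6.78% of all promoters. These 7 include the near-identical copies TRIM64 and TRIM64B, with the same match at the same place, so the share counts that match more than once. Among matched promoters the ISRE core was in 2 of 6 lower, 0 of 2 higher and 6 of 38 members that did not pass. The promoters of the lower genes TRIM9, TRIM46, TRIM74 and TRIM6-TRIM34 held no core, and TRIM5, shown above with one, did not pass. A match describes letters in these windows and does not show that a factor binds there.

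Of the 10 measured genes on a list of antiviral and interferon-pathway TRIM genes, TRIM21 rose, TRIM22 fell and 8 did not pass. All 10 lay at or above the median of all rows, and 20% were called, below the 29.1% of all such genes. TRIM25, the ligase that activates the RNA sensor RIG-I, read 10.15, 10.22 and 10.15 in control arrays and 10.01, 10.02 and 9.97 in RKIP shRNA arrays. These groups did not overlap, yet the log2 change was only -0.18 (95% interval -0.33 to -0.02, limma adjusted p = 0.103). It passed with a trended and robust prior (adjusted p = 0.00819), with dim genes left out (0.0431) and with an unmoderated statistic (0.0311). TRIM65, a ligase for the RNA sensor MDA5, had a log2 change of -0.30 (95% interval -0.53 to -0.07, adjusted p = 0.076), with adjusted p = 0.0195 without RKIP shRNA replicate 2, the highest array of its group. TRIM65 also passed with a trended and robust prior, with array weights and with dim genes left out. TRIM38, a regulator of TAB2 and of RNA sensors, had -0.14 and TRIM14, an adaptor at mitochondria, 0.12. TRIM4, TRIM26 and TRIM56 had log2 changes of 0.03, -0.01 and 0.02, with 95% intervals inside -0.18 to 0.19.

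Genes of RNA sensing and interferon signalling were listed too, and 17 of 23 had a value. TBK1 and CGAS rose, RIGI, IFIH1 and TAB2 fell, and 12 did not pass. The 5 called are 29.4% of the list, whose genes all lay at or above the median of all rows, where 29.1% of all genes were called. RIGI, the gene of the sensor RIG-I, read 7.25, 7.27 and 7.24 in control arrays and 6.79, 6.78 and 6.63 in RKIP shRNA arrays. It fell by 0.52 (SE 0.07, adjusted p = 0.00339). IFIH1, the gene of MDA5, read 6.84, 6.85 and 6.82 against 6.24, 5.70 and 6.25, with RKIP shRNA replicate 2 lower than the other two, and fell by 0.77 (SE 0.15, adjusted p = 0.0122). With an unmoderated statistic IFIH1 did not pass (adjusted p = 0.0685). TBK1, the kinase that activates IRF3, rose by 0.39 and CGAS, the cytosolic DNA sensor, by 0.31 (adjusted p = 0.0279 and 0.0203). Each of this pair lost its call in 4 of 6 fits without 1 array: TBK1 without control replicate 2 or 3 or RKIP shRNA replicate 1 or 3, up to adjusted p = 0.0902, and CGAS without control replicate 2 or 3 or RKIP shRNA replicate 1 or 2, up to 0.0750. The count of listed sensors and signalling genes that rose went from 2 to 0 without control replicate 2 or 3 or RKIP shRNA replicate 1. The list of interferon-stimulated genes had 30 entries, of which 10, among them MX1, OAS1, OAS2 and OAS3, had no value. Of the 20 measured, 8 rose, where 10% of all genes did, and 12 did not pass. Of these 20 genes, 15 lay at or above the median of all rows, where 14.5% of all genes rose. None of the 20 fell by limma's adjusted p, but RIGI, IFIH1 and TRIM22, which fell, were counted in other lists. On this list, XAF1 at -0.22 had an unadjusted limma p of 0.0422. The median log2 change of that list was 0.17, beside 0.02 for all genes. From dim control means, IFIT1 rose by 1.57, IFIT2 by 1.44 and CXCL10 by 2.40, and OASL rose by 0.77. TRIM21 moved in the direction of the called genes of that list and TRIM22 against it.

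**Figure D2:**
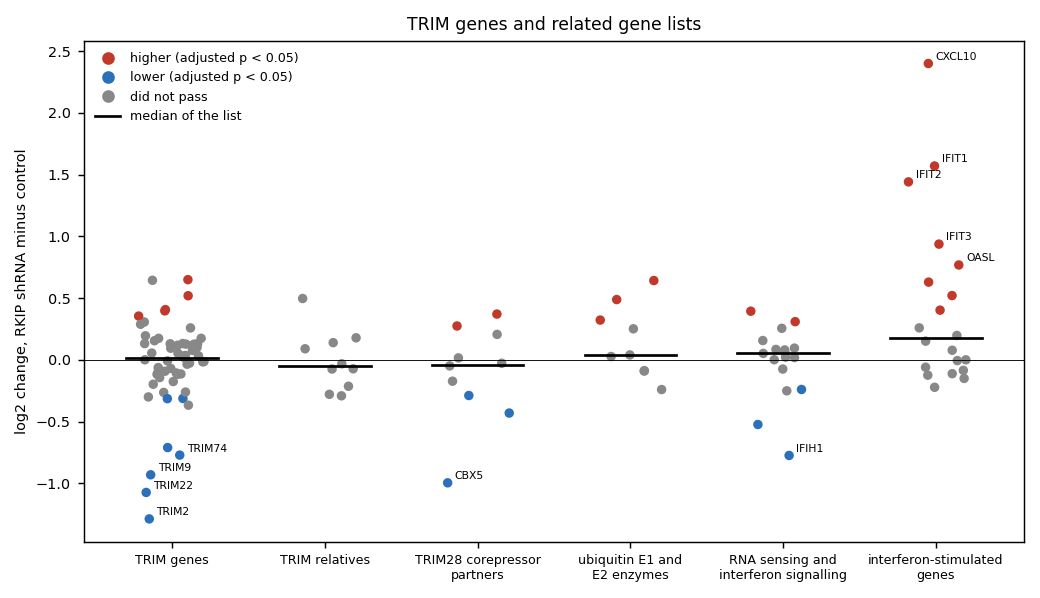
Log2 change (RKIP shRNA minus control, y axis) of the TRIM genes and of 5 related gene lists, 1 point per gene; red is higher and blue lower at a limma adjusted p under 0.05, grey did not pass, and the bar is the median of the list. The called genes of the interferon-stimulated list are all above 0, up to CXCL10 at 2.40, while RIGI and IFIH1, counted in another list, lie below 0 with TRIM22.

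Of the 4 nuclear PHD-bromodomain members, 2 rose and 2 did not pass. All 4 lay at or above the median of all rows, where 14.5% of all genes rose and 29.1% were called. TRIM28, a universal corepressor recruited by KRAB zinc finger proteins to silence retroelements, read 10.26, 10.43 and 10.46 in control arrays and 10.89, 10.96 and 10.85 in RKIP shRNA arrays. The groups were separate, and it rose by 0.52 (SE 0.08), or 1.43-fold (limma adjusted p = 0.00485). TRIM24, a coactivator of nuclear receptors and a ligase for p53, read 8.90, 8.88 and 8.89 against 9.24, 9.25 and 9.38. The control arrays had an SD of 0.01, and it rose by 0.40 (SE 0.07), or 1.32-fold (adjusted p = 0.00776). TRIM33, a partner of SMAD proteins that also binds TRIM24, had a log2 change of -0.06 (95% interval -0.23 to 0.10) and did not pass. TRIM66, which lacks the RING, read 6.78, 6.64 and 6.54 against 6.28, 6.49 and 6.41, a log2 change of -0.26 (95% interval -0.48 to -0.04, adjusted p = 0.0964). With dim genes left out its adjusted p was 0.049.

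Of 10 measured partners CBX1 and HDAC1 rose, CBX5, ATF7IP and CHD3 fell, and 5 did not pass, where 14.5% of all genes at or above the median of all rows rose and 14.6% fell. CBX5, which encodes HP1 alpha, a reader of silenced chromatin, read 8.24, 8.31 and 8.38 in control arrays and 7.37, 7.08 and 7.49 in RKIP shRNA arrays. It fell by 1.00 (SE 0.12, adjusted p = 0.00181), while CBX1, which encodes the HP1 beta paralog, rose by 0.37 (SE 0.08, adjusted p = 0.0172). ATF7IP, a cofactor of the methyltransferase SETDB1, fell by 0.43 (adjusted p = 0.0106), and CHD3, a remodelling ATPase bound by TRIM28, by 0.29 (adjusted p = 0.0245). CBX1 lost its call without control replicate 1 or 3 or RKIP shRNA replicate 1 or 2, up to adjusted p = 0.0628. The count of partners that rose went from 2 to 0 without control replicate 1 or 3 or RKIP shRNA replicate 1. CHD3 kept its call only without RKIP shRNA replicate 1 among those fits, and reached adjusted p = 0.0846 without control replicate 3.

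Of 33 measured PRY-SPRY genes, 3 rose, 2 fell and 28 did not pass, with a median log2 change of 0.03. A further 12 of the 45 listed for this class had no named probe. The 15.2% called was below the 20.2% of all genes, and 13 of the 33 were dim. A pair of PRY-SPRY genes outside the antiviral list rose. TRIM72, known from muscle for membrane repair, read 5.64, 5.57 and 5.61 in control arrays and 6.001, 6.04 and 6.003 in RKIP shRNA arrays. The SDs were 0.03 and 0.02, and it rose by 0.41 (SE 0.06), or 1.33-fold (limma adjusted p = 0.00477). TRIM35, a ligase linked to pyruvate kinase and to IRF7, read 6.47, 6.34 and 6.33 against 6.78, 6.66 and 6.77. It rose by 0.35 (SE 0.07, adjusted p = 0.0162), and the call was lost without control replicate 2 or 3 or RKIP shRNA replicate 1, at adjusted p from 0.0614 to 0.0625.

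Both remaining falls were in genes with near-identical copies, so their signals may be shared. TRIM16, which lacks a RING and is known for the response to damaged lysosomes, has the copy TRIM16L. It read 5.95, 6.26 and 6.21 in control arrays and 5.69, 5.46 and 5.14 in RKIP shRNA arrays, with a wider spread in the latter (SD 0.28). It fell by 0.71 (SE 0.15), or 1.64-fold (limma adjusted p = 0.0181), and lost the call without control replicate 2 (0.0645) or control replicate 3 (0.0611) and with an unmoderated statistic (0.0865). TRIM74, which has lost the C-terminal domain and is a copy of TRIM73 and a relative of TRIM50, read 6.28, 5.87 and 6.33 against 5.45, 5.37 and 5.37. Control replicate 2 was lower than the other control arrays but still above every RKIP shRNA array. The mean fell by 0.77 (SE 0.13), or 1.71-fold (adjusted p = 0.00642). TRIM50 itself was dim, with a log2 change of -0.04.

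**Figure D3:**
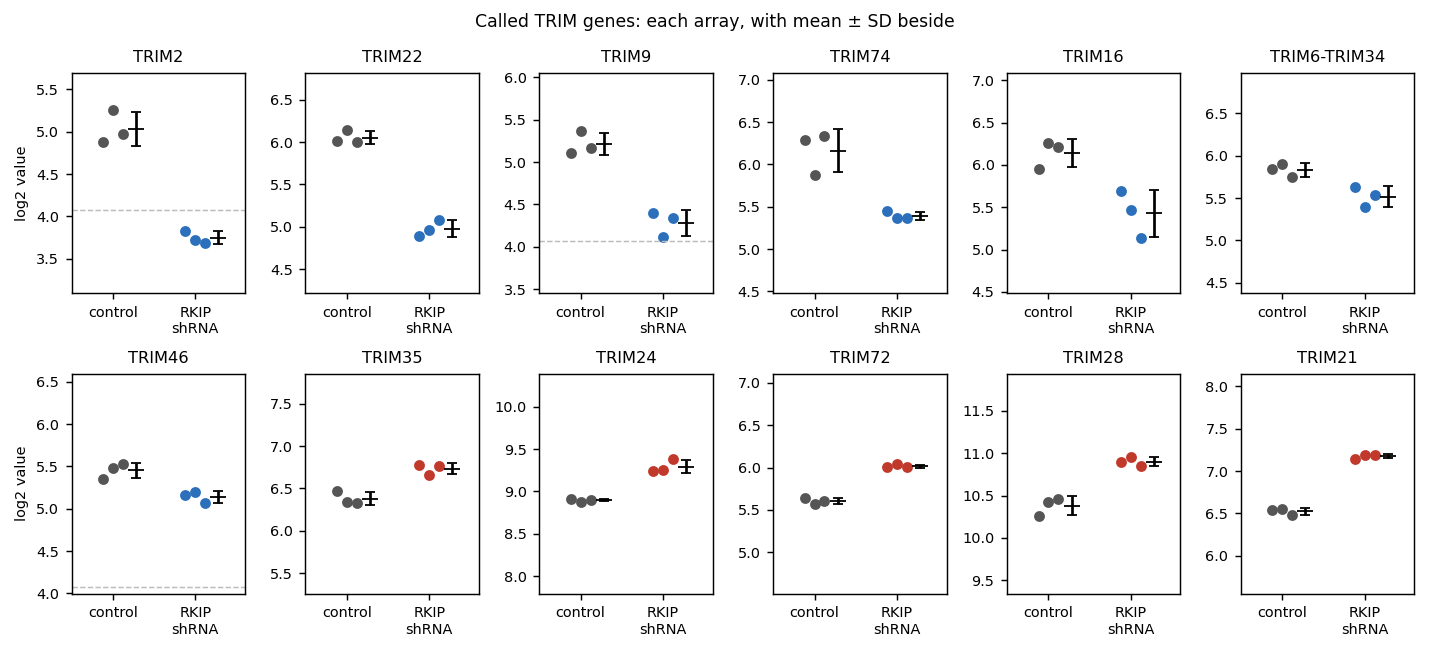
Log2 value of each array (points) for the 12 called TRIM genes in control (grey) and RKIP shRNA (blue lower, red higher), with mean and SD of the 3 arrays beside them and a dashed line at the median of all rows, 4.07, where it falls in range; every panel spans the same range on the y axis. In all 12 panels the groups do not overlap, and the RKIP shRNA arrays of TRIM2 lie under the dashed line.

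Of 9 measured members without a known C-terminal domain, TRIM74 fell and 8 did not pass. The 11.1% called was below the 20.2% of all genes, and 2 of the 9 were dim. TRIM44, which counters ubiquitination of its targets, read 9.23, 9.22 and 9.04 in control arrays and 8.89, 8.94 and 8.87 in RKIP shRNA arrays. Its log2 change of -0.26 (95% interval -0.45 to -0.08) missed the threshold narrowly (limma adjusted p = 0.0546) and passed without control replicate 3 (adjusted p = 0.0424). TRIM44 also passed with quantile normalisation, with a trended and robust prior and with dim genes left out. TRIM52 had -0.20 and TRIM8, a regulator of cytokine signalling, 0.06. None of the 3 measured genes with an ARF, MATH or membrane segment passed limma's adjusted threshold, and 1, TRIM37, a centrosome regulator, had an unadjusted p under 0.05, with a log2 change of 0.17 (95% interval 0.01 to 0.34). TRIM37 passed with a trended and robust prior (limma adjusted p = 0.0418). TRIM13, an endoplasmic reticulum ligase, had 0.08 and TRIM59, which is anchored in membranes, 0.12.

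The measured TRIM genes of the major histocompatibility region on chromosome 6 did not pass. Of these, TRIM10, TRIM15, TRIM27 and TRIM40 each had 8 probes and TRIM31 had 5. Some of these probes held the same values on all arrays: TRIM10 and TRIM15 had 4 distinct profiles each, TRIM27 had 6, TRIM40 had 7 and TRIM31 had 5. TRIM27, a corepressor and ligase, had a log2 change of 0.05 at the probe used and up to 0.21 at others. The lowest adjusted p of any of its probes, over all rows, was 0.209. TRIM48, which was dim, had the largest difference among the members that did not pass, at 2.49, 2.97 and 2.00 in control arrays and 3.42, 3.35 and 2.62 in RKIP shRNA arrays. The groups overlapped and its log2 change of 0.64 had a 95% interval from -0.05 to 1.34. TRIM43 with TRIM43B, TRIM49 with TRIM49B, and TRIM64 with TRIM64B and TRIM64C are near-identical copies. Their signals may be shared, which was not tested. All had log2 changes between -0.11 and 0.29.

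Genes of the family that carry another symbol were measured as well. Of 10 such genes, none passed limma's adjusted threshold and 2 had an unadjusted p under 0.05. RFPL2 had a log2 change of 0.50 (adjusted p = 0.072) and passed without control replicate 2 (adjusted p = 0.0392). RFPL2 also passed with a trended and robust prior and with dim genes left out. BSPRY, a PRY-SPRY protein, had -0.29 (adjusted p = 0.26). PML, the organiser of nuclear bodies, had 0.09. The E1 and E2 enzymes that load RING ligases gave 3 of 9 that rose and 6 that did not pass. All 9 lay at or above the median of all rows, where 14.5% of all genes rose and 14.6% fell. The 33.3% called, all of them rises, compares with 29.1% of such genes called in either direction. No value was available for 5 of the 14 listed enzymes, among them UBE2D1, UBE2D2 and UBE2D3. UBA1, the main ubiquitin-activating enzyme, read 10.81, 10.77 and 10.77 in control arrays and 11.26, 11.27 and 11.29 in RKIP shRNA arrays, a rise by 0.49 (SE 0.06, adjusted p = 0.00237). UBE2D4, an E2 enzyme of the family that many RING ligases use, rose by 0.64 (SE 0.10, adjusted p = 0.0044). UBE2V2, a cofactor for K63-linked chains, rose by 0.32 (adjusted p = 0.0408) and kept its call only without RKIP shRNA replicate 2 among the fits without 1 array, with adjusted p up to 0.117 without control replicate 1.

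Of the 12 called members, 8 kept the call in each of the 6 fits that left out 1 array: TRIM2, TRIM9, TRIM21, TRIM22, TRIM24, TRIM28, TRIM72 and TRIM74. These 8 also had an adjusted p under 0.01 with all arrays, as did 9.89% of all genes. TRIM16, TRIM35, TRIM46 and TRIM6-TRIM34 lost it in at least 1 fit. The count of lower members was 4 without control replicate 2.

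**Figure D4:**
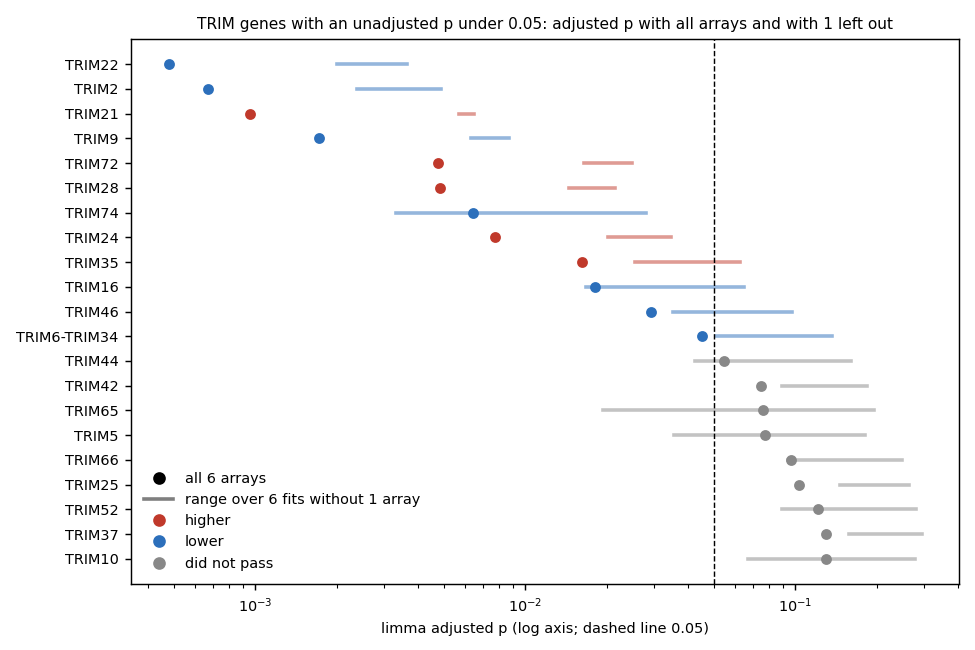
Limma adjusted p (x axis, log scale) of the 21 TRIM genes with an unadjusted p under 0.05, with all 6 arrays (points) and as the range over the 6 fits that each left out 1 array (bars); red is higher, blue lower, grey did not pass, and the dashed line is 0.05. The bars of 8 called genes stay left of the line, and that of TRIM6-TRIM34 lies right of it.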

How the data were processed

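The authors deposited 1 table of 53617 rows and 6 arrays (Affymetrix Human Gene 2.0 ST, per the series' design text), made from 250 ng of total RNA per array, per the labels. The deposited values are taken as log2, from their range of 0.72 to 14.0. How the authors corrected background and normalised was not given in the sources used here, nor was the genome build. The labels give no array date or batch. Rows were named by the array annotation: 16098 had 1 symbol, 0 had several and 37519 were unnamed here. All 14884 genes matched RefSeq by gene number.

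RKIP shRNA was compared with control by lmFit and eBayes of limma 3.58.1 (R 4.3.3) over all genes, with no covariate and 7.01 degrees of freedom. The number of arrays limits the precision. The alternatives were quantile normalisation, median centring, another prior, array weights, a replicate block, another filter, all rows, the mean of probes, an unmoderated statistic, adjusted p under 0.01 and leaving out each array. On simulated arrays with 200 of 14884 genes changed, 58.2% of changes of 0.5, 89.6% of 1 and 100.0% of 2 were recovered, and 4.07% of calls were false. In the data 20.2% of genes were called, a far larger share than was changed there, so these rates need not hold for the data. Changes under 0.5 were not simulated. The members and lists were chosen with earlier results of these data known. The genes named are all called members, in each class the member with the highest mean and the uncalled one with the largest difference, neighbours of TRIM22, PEBP1, and in each related list up to 4 called genes by smallest p, or with none called the 2 with the largest difference. TAB2, HDAC1, XAF1, PML, the called markers, CD14, S100A8 and the further uncalled TRIM genes were named after their values were seen. Figures used matplotlib 3.10.9.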

Additional observations from a re-analysis of the deposited data

How the results depend on the processing

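The 8 called members with an adjusted p under 0.01 kept their direction and call in every alternative run. No called member changed direction in any of them. The count of lower members was 7, and became 11 with a trended and robust prior, 12 with dim genes left out, 4 at an adjusted p under 0.01 and from 4 to 7 on leaving out 1 array, while that of higher members was 4 to 5 on leaving out 1 array. Over all genes, 1495 higher and 1515 lower became 839 and 935 with all rows tested, and 697 and 775 at an adjusted p under 0.01. Leaving out 1 array gave 963 to 1212 higher and 1018 to 1270 lower. TRIM32, at 0.04 and not called, ranged from -0.019 to 0.085 on leaving out 1 array: it was negative (-0.017 and -0.019) when control replicate 3 or RKIP shRNA replicate 1 was missing. With the replicate number as a block, 4 members were lower and 6 higher: TRIM16, TRIM46 and TRIM6-TRIM34 lost their calls and TRIM48 passed (adjusted p = 0.0300). The labels do not say that the numbers pair arrays. Deviations of same-numbered arrays from their group means correlated at 0.019, 0.0034 and -0.016. Control replicate 3 correlated more with RKIP shRNA replicate 2, at 0.030. With 3 arrays a group, these values cannot tell whether same-numbered arrays were handled together. In the related lists the block ended the calls of CGAS, CHD3 and UBE2V2. With all rows tested, TRIM35, TRIM46, TRIM6-TRIM34, CBX1, CGAS, CHD3, TBK1 and UBE2V2 did not pass (adjusted p from 0.0581 to 0.118). With an unmoderated statistic, TRIM16, TRIM6-TRIM34, IFIH1, TBK1 and UBE2V2 did not pass (0.0685 to 0.0895). TRIM6-TRIM34 also missed with quantile normalisation, median centring and array weights (0.0558 to 0.0662). Causes of these shifts were not tested. Changes of dim genes, 17 members among them, and that of TRIM2, dim in RKIP shRNA cells, are limited by their signal over background.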
